A study of Mus musculus with 4 samples.

Results

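The miR-297 and miR-466 families were examined in the exosome fraction of differentiating 3T3-L1 cells. Members were taken by name, as every miRNA on the array called miR-297 or miR-466 with any letter or arm. This gave 26 of the 1881 miRNAs on the array, 3 of the miR-297 family and 23 of the miR-466 family. By name, 10 members come from the 3p arm of their hairpin, 12 from the 5p arm, and 4 carry no arm in their name.

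3T3-L1 is a mouse fibroblast line whose cells can be induced in culture to become fat-storing adipocytes. Medium of D0 came from cells in low-glucose growth medium before induction, and medium of D4, D12 and D16 from cells that had been induced with IBMX, dexamethasone and insulin and then kept in high-glucose medium with insulin. All media contained exosome-depleted serum, penicillin and streptomycin. The change of medium and the day cannot be told apart between D0 and the later days. The exosome fraction was pelleted by ultracentrifugation, and 1 single-colour (Cy3) miRNA array was hybridized with its RNA for each day, 4 in all. For each array, exosomal samples from independent experiments were mixed, according to the methods by equal protein amount, so there was no replicate array. No difference between days has a replicate check, and no test or p-value is given.

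A miRNA hairpin is cut into a short duplex, and either strand can be kept as the mature miRNA. The strand from the first side of the hairpin is called 5p and that from the other side 3p. Sfmbt2, a Polycomb-group gene that is expressed from the paternal copy in mouse extraembryonic tissues, holds a large cluster of repeated miRNA hairpins in an intron, among them miR-297, miR-466, miR-467 and miR-669. In the RefSeq gene table of GRCm38.p6, 28 of the 34 genes of the miR-297 and miR-466 families lay inside the span of Sfmbt2 on chromosome 2. The table gives no introns, so their place within the gene was not examined. The other 6 genes lay elsewhere, with Mir466i inside Cdk13, Mir466q inside Tnik, Mir466k inside Gm31419, and Mir297-1, Mir466f-4 and Mir466j at other places. Of the 25 members that matched a gene, 17 had every copy inside Sfmbt2, 3 had some copies outside (miR-297a-3p and both arms of miR-466f) and 5 had none inside (both arms of miR-466i, miR-466j, miR-466k and miR-466q). The families are therefore only in part a Sfmbt2 cluster. miR-466a-5p matched no gene by its lettered name. A gene named Mir466, without a letter, lies inside Sfmbt2 and was not assigned to any member.

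Mature sequences from RefSeq (build GRCm38.p6) matched 4 of the 26 members. All 4 are shown, since they hold runs of alternating bases of different kinds and 3 of them belong to members with signals described below. Each is written from 5′ to 3′ with its seed (bases 2 to 8), the stretch that pairs with a target, in capitals.
miR-466i-3p: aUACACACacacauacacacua
miR-466q: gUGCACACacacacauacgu
miR-466j: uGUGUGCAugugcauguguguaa
miR-466k: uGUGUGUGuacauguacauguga

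All 4 lie on the plus strand, miR-466i-3p at chr13:17747552-17747573, miR-466q at chr3:28419988-28420007, miR-466j at chr10:60960802-60960824 and miR-466k at chr3:85467396-85467418. The array header names another assembly, and these positions were not compared with it. Runs of alternating bases were counted in whole pairs of bases, which leaves out an odd last base. miR-466i-3p was rich in alternating A and C, with A and C at 86.4% of its 22 bases and a longest AC run of 10 bases. miR-466q had an AC run of 12 bases and 70.0% A and C. miR-466j and miR-466k instead carried U and G, with 26.1% and 30.4% A and C and a longest UG run of 6 and 8 bases. The letters ACACACA, searched on the mature strand alone, occur in miR-466i-3p and miR-466q, and UGUGUGU in miR-466j and miR-466k. Among the 1608 array miRNAs with a sequence, 5 (0.311%) held ACACACA and 11 (0.684%) held UGUGUGU. The 4 seeds differ from each other, and no other array miRNA with a sequence shares one of them. Members of these families are close in sequence, and how far probes of one member also take up another was not tested.

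The values are total gene signals in the intensity units of the scanner software, each the sum over those probes of a miRNA whose signal was above 3 times its error, and they were not scaled between arrays. The arrays differed in brightness. In the order of the days, the detected miRNAs summed to signals of 12716, 39129, 30966 and 21873. Over the 283 miRNAs detected on all 4 arrays, the median ratios of D4, D12 and D16 to D0 were 2.59, 1.99 and 1.32 (log2 1.37, 1.00 and 0.41). Ratios of members are therefore given beside this median. The D0 array, which is the denominator of every ratio, was uneven, with a median coefficient of variation between replicate spots of 21.1% against 7.19% to 8.07% on the other arrays, and no spot was saturated. For members detected on all 4 arrays the right side of the D0 array was brighter than the left by a median of 0.50 on the log2 scale. Of 6 miRNAs listed for adipocytes, 2 were detected at D0, 5 at D4 and all 6 at D12 and D16, and their summed signal ranged from 8.36 at D0 to 160 at D12. Of 3 miRNAs listed for red blood cells, 1 was detected at D0 and all 3 on each later day, with summed signals of 9.40, 468, 2524 and 1649 in the order of the days, and their part in the results was not tested. Of the 3 leukocyte miRNAs 0 to 2 were detected on a day with a summed signal of up to 76.9, miR-122-5p of liver was at 6.26 at D12 and 4.13 at D16, and miR-1a-3p, miR-133a-3p and miR-206-3p of striated muscle were detected on no array.

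Members were detected more often than the array as a whole. In the order of the days, 13 (50%), 17 (65.4%), 16 (61.5%) and 17 (65.4%) of the 26 members were detected, while 17.5%, 22.6%, 21.6% and 20.2% of all miRNAs on the array were. All 13 members detected at D0 were also detected on the other 3 arrays, so none was lost, whereas of all miRNAs detected at D0 the shares lost on D4, D12 and D16 were 3.65%, 9.73% and 12.2%. Of the 13 members not detected at D0, 4, 3 and 4 were gained on these days, where 7.02%, 7.02% and 5.86% of all undetected miRNAs were gained. Each gained member was a 3p miRNA, namely miR-466b-3p, miR-466d-3p, miR-466l-3p and miR-466o-3p. On the whole array, 57, 55 and 44 3p miRNAs and 43, 45 and 38 5p miRNAs were gained on these days. In the order of the days, 5, 9, 8 and 9 of the 10 3p members were detected, and 5 of the 12 5p members on every day. Of all 3p miRNAs on the array 20.6%, 27.6%, 27.1% and 25.1% were detected, and of all 5p miRNAs 13.5%, 18.2%, 17.0% and 15.9%. Stricter rules of detection changed the counts of members, and the shares of all miRNAs under them were not computed. When a probe needed 50% or more of its spots well above background, 13 members were detected on every day, with 3 gained (miR-466b-3p, miR-466d-3p and miR-466l-3p) and 3 lost on each later day. The 3p count was then 5 at D0 and 8 later, and the 5p count 5 and 3. With probe signals above 5 times their error, 12, 13, 12 and 12 members were detected, with 3, 2 and 2 gained, all of them 3p, and 2 lost on each later day. The 9 members detected on no array were miR-297b-5p, miR-297c-5p, miR-466a-5p, miR-466d-5p, miR-466k, miR-466l-5p, miR-466n-3p, miR-466n-5p and miR-466p-5p, of which 7 are 5p, 1 is 3p and 1 has no arm in its name.

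**Figure D1:**
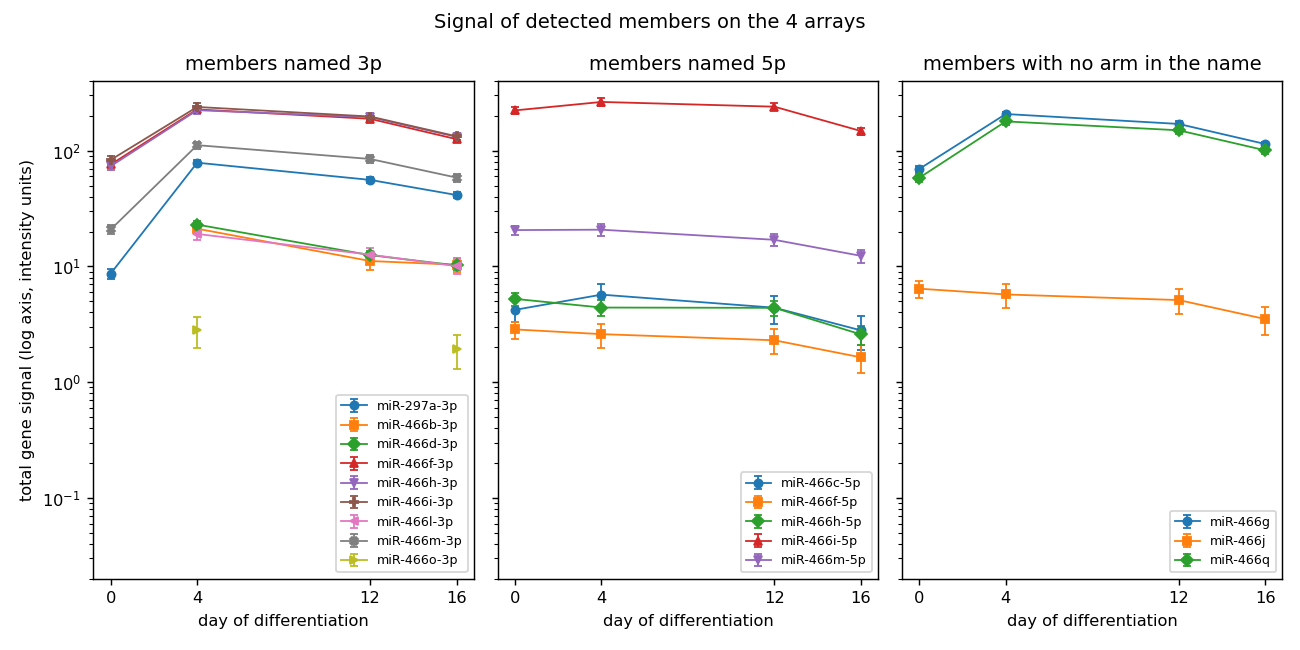
Total gene signal (log axis, intensity units, not scaled between arrays) of each detected member on the arrays of D0, D4, D12 and D16, split by arm, with bars of 1 software error within the array. Each 3p member shown was at its highest at D4, and those detected at D0 were above it on every later day, while the 5p members had D4/D0 ratios from 0.842 to 1.35. Missing points are days on which a member was not detected.

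The 3p members miR-466f-3p, miR-466h-3p and miR-466i-3p had similar courses. miR-466i-3p, whose AC-rich sequence is given above, had signals of 83.3 ± 6.24 (software error within the array), 239 ± 17.1, 197 ± 14.1 and 133 ± 9.55 in the order of the days. miR-466f-3p had signals of 76.0 ± 4.22, 227 ± 11.5, 189 ± 9.64 and 126 ± 6.42. miR-466h-3p had 73.5 ± 5.43, 224 ± 15.9, 195 ± 13.9 and 132 ± 9.42. All 3 were lowest at D0, highest at D4 and lower again at D12 and at D16. Their D4/D0 ratios were 2.87, 2.99 and 3.05, their D12/D0 ratios 2.37, 2.48 and 2.65, and their D16/D0 ratios 1.60, 1.65 and 1.79. A range of 2 errors around the D12/D0 ratio ran from 1.93 to 2.92 for miR-466i-3p, from 2.13 to 2.89 for miR-466f-3p and from 2.16 to 3.26 for miR-466h-3p. These ranges lay above 1 on all 3 days. They included the median of all miRNAs for all 3 members at D4 and for miR-466i-3p on every day, whereas those of miR-466f-3p and miR-466h-3p lay above it at D12 and D16.

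Larger ratios were measured for miR-466m-3p and miR-297a-3p. miR-466m-3p had signals of 20.9 ± 1.97, 112 ± 8.28, 84.8 ± 6.40 and 58.6 ± 4.46. Its ratios of D4, D12 and D16 to D0 were 5.35 (2-error range 4.21 to 6.80), 4.06 (3.19 to 5.17) and 2.81 (2.20 to 3.57). miR-297a-3p, the only member of the miR-297 family that was detected, had signals of 8.69 ± 0.88, 78.8 ± 4.23, 56.0 ± 3.12 and 41.4 ± 2.31. Its ratios of 9.07 (7.21 to 11.4), 6.44 (5.11 to 8.12) and 4.77 (3.78 to 6.01) were the largest of any member on each day. The software summed 3 of its probes at D0 and 4 afterwards, and over the 3 shared probes the ratios were 7.46, 5.35 and 3.88. For miR-466m-3p and miR-297a-3p the 2-error range lay above the median of all miRNAs on all 3 days.

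The 3p members that were not detected at D0 had low signals later as well. miR-466b-3p had signals of 21.2 ± 2.26, 11.1 ± 1.76 and 10.3 ± 1.45 on D4, D12 and D16. miR-466d-3p had 23.0 ± 1.68, 12.5 ± 1.19 and 10.2 ± 0.95, and miR-466l-3p had 19.1 ± 2.16, 12.6 ± 1.80 and 10.1 ± 1.43. Each was brightest at D4. A D0 limit was set at 3 errors, summed over the probes of each. The D4 signals of miR-466b-3p, miR-466d-3p and miR-466l-3p were 4.27, 4.58 and 3.81 times this limit. At D16 all 3 signals were at 2.01 times it or more. These unscaled folds leave out the error of the later signal. The median ratios of all miRNAs to D0 were 2.59 at D4 and 1.32 at D16. miR-466o-3p was detected at D4 (2.81 ± 0.84) and D16 (1.92 ± 0.62), below its D0 limit of 4.92, so no fold is given.

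The 5p members had another course. miR-466i-5p had signals of 223 ± 16.2, 264 ± 18.8, 240 ± 17.1 and 148 ± 10.6. Its ratios to D0 were 1.18 (0.965 to 1.45), 1.08 (0.878 to 1.32) and 0.664 (0.541 to 0.813) on the later days, so that only the D16 range excluded 1. miR-466m-5p had signals of 20.6 ± 1.94, 20.8 ± 2.31, 17.0 ± 2.02 and 12.4 ± 1.56, with ratios of 1.01, 0.824 and 0.599. Of these the D16 range (0.437 to 0.821) excluded 1.

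The other 5p members were near the limit of detection. miR-466c-5p had signals of 4.22 ± 0.92, 5.71 ± 1.32, 4.4 ± 1.19 and 2.80 ± 0.92. miR-466f-5p had 2.86 ± 0.48, 2.60 ± 0.61, 2.30 ± 0.56 and 1.64 ± 0.44. miR-466h-5p had 5.24 ± 0.69, 4.41 ± 0.71, 4.39 ± 0.68 and 2.59 ± 0.48. Their D12/D0 ratios were 1.04, 0.806 and 0.837, and the 2-error range of each at D4 and D12 included 1. At D16 miR-466h-5p had a ratio of 0.493 (0.313 to 0.779), the only member ratio under 0.5. It was summed over 2 probes at D0 and 1 later, and on the shared probe its ratios were 1.11, 1.1 and 0.649.

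Among members without an arm in their name, miR-466g and miR-466q followed the 3p members and miR-466j the 5p members. miR-466q, with the AC run, had signals of 58.3 ± 4.54, 179 ± 12.9, 150 ± 10.9 and 101 ± 7.30 and ratios of 3.07, 2.57 and 1.73. miR-466g had 69.6 ± 3.66, 208 ± 10.5, 170 ± 8.61 and 114 ± 5.80 and ratios of 2.98, 2.45 and 1.64. miR-466j, with the UG run, had 6.43 ± 1.04, 5.73 ± 1.33, 5.12 ± 1.22 and 3.51 ± 0.95 and ratios of 0.891, 0.797 and 0.547. Each of its 2-error ranges included 1. Profiles were compared by the Euclidean distance over the 4 arrays after each log2 profile was centred on its own mean. By this measure miR-466g and miR-466q were 0.41 and 0.36 from the mean 3p profile and 1.27 and 1.33 from the mean 5p profile, whereas miR-466j was 1.84 from the 3p and 0.17 from the 5p profile.

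**Figure D2:**
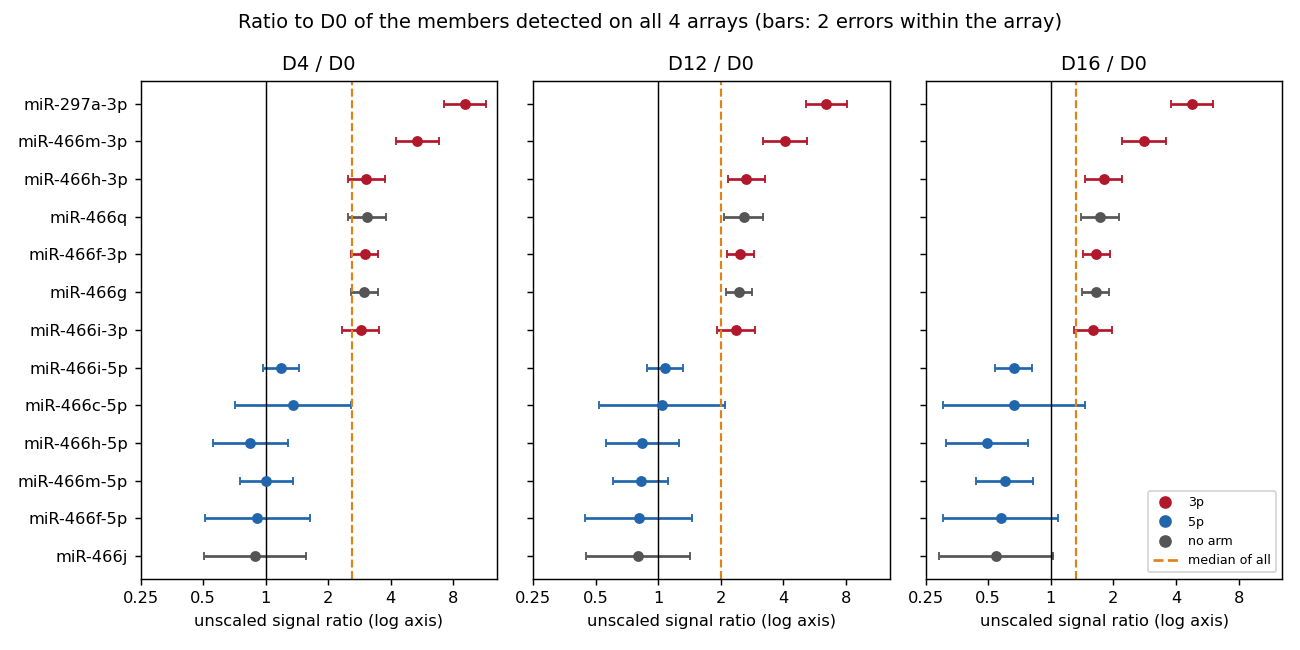
Ratio of each later day to D0 (log axis, unscaled signals) for the 13 members detected on all 4 arrays, coloured by arm, with bars of 2 software errors within the array, the solid line at 1 and the dashed line at the median of all 283 miRNAs (2.59, 1.99 and 1.32). All 5 3p members, miR-466g and miR-466q lie right of the dashed line on each day, and all 5 5p members and miR-466j lie left of it.

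By their ratios alone, the 3p and 5p members did not overlap on any later day, but some 2-error ranges did. That of miR-466c-5p ran from 0.716 to 2.56 at D4, 0.521 to 2.09 at D12 and 0.302 to 1.46 at D16. It overlapped at least that of miR-466i-3p (2.33 to 3.53, 1.93 to 2.92 and 1.30 to 1.97) on each later day. At D12 and D16 it also included the median of all miRNAs (1.99 and 1.32). The median ratio to D0 of the 5 3p members detected on all 4 arrays was 3.05, 2.65 and 1.79 on D4, D12 and D16. That of the 5 5p members was 1.01, 0.837 and 0.599. Relative to the median of all miRNAs, the 3p median stood at 1.18, 1.33 and 1.35 and the 5p median at 0.390, 0.420 and 0.452. The medians of the arms differed by 1.60, 1.67 and 1.58 on the log2 scale, or by 3.02-fold, 3.17-fold and 2.99-fold, and a factor common to an array cancels in this difference. Over all 152 3p and 81 5p miRNAs detected on all 4 arrays the same difference was -0.21, 0.18 and 0.07. On no day was the lowest 3p member below the highest 5p member. This held under each of the 10 settings of scaling, background and spots for which it was computed. Scaling by the spike-in RNAs, the median or a percentile divides an array by 1 factor and cannot change this order. All settings use the same D0 array.

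The difference between the arms lay in the comparison with D0. Between D4 and D12 the 3p members had a median ratio of 0.827 (range 0.710 to 0.872) and the 5p members one of 0.885 (0.771 to 0.994), beside 0.843 for all miRNAs. Between D12 and D16 the medians were 0.675 for 3p and 0.637 for 5p, beside 0.695 for all. On the log2 scale the 3p median minus the 5p median was -0.10 for D12 against D4 and 0.08 for D16 against D12. The share of the summed signal of detected miRNAs held by the 3p members was 2.06%, 2.42%, 2.45% and 2.39% in the order of the days. The 5p members held 2.01% on the first day and 0.760%, 0.866% and 0.765% later. Most of this was miR-466i-5p, which alone held 1.75% at D0 and 0.674%, 0.775% and 0.677% later. In such pooled fractions, fewer vesicles carrying a miRNA and fewer copies in each vesicle cannot be told apart.

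Counts of members past fixed thresholds depended on the scaling. With unscaled signals, 7, 7 and 2 of the 13 members had a ratio above 2 on D4, D12 and D16, beside 62.1%, 47.8% and 31.1% of all miRNAs detected on both days. A ratio below 0.5 was found for 0, 0 and 1 members, beside 0.315%, 3.37% and 9.34%. A ratio below 1 was found for 3, 4 and 6 members, all of them 5p or miR-466j, beside 5.36%, 15.8% and 29.4%. After division by the median ratio of all miRNAs, 2 members (miR-297a-3p and miR-466m-3p) were above 2 on each later day, beside 20.8%, 19.5% and 22.1%, and 5, 4 and 4 were below 0.5, beside 9.78%, 15.8% and 14.5%. The split of members above and below the thresholds at D12 thus went from 7 and 0 to 2 and 4 with this scaling.

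Single probes were split by arm too, but member signals are sums of these probes, so this is not a separate check. At D12 the 13 probes of 3p members that were detected on both days had ratios from 2.00 to 6.51 (median 2.67), and the 7 probes of 5p members had ratios from 0.726 to 1.12 (median 1.04). At D4 the lowest 3p probe was at 2.30 and the highest 5p probe at 1.35, and at D16 they were at 1.29 and 0.718. Within miR-466f-3p, miR-297a-3p, miR-466i-3p and miR-466m-3p the probe with the lower D0 signal had the larger ratio. The 4 probes of miR-466f-3p had D0 signals of 8.89, 18.4, 19.8 and 29.0 and D12/D0 ratios of 3.97, 2.67, 2.35 and 2.00. The 3 probes of miR-297a-3p detected at D0 had signals of 1.76, 2.66 and 4.26 and ratios of 6.51, 5.77 and 4.6. Both measures contain the D0 signal of the probe. The D0 signals of the 5p probes ran from 2.86 to 124, with no ratio above 1.12.

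**Figure D3:**
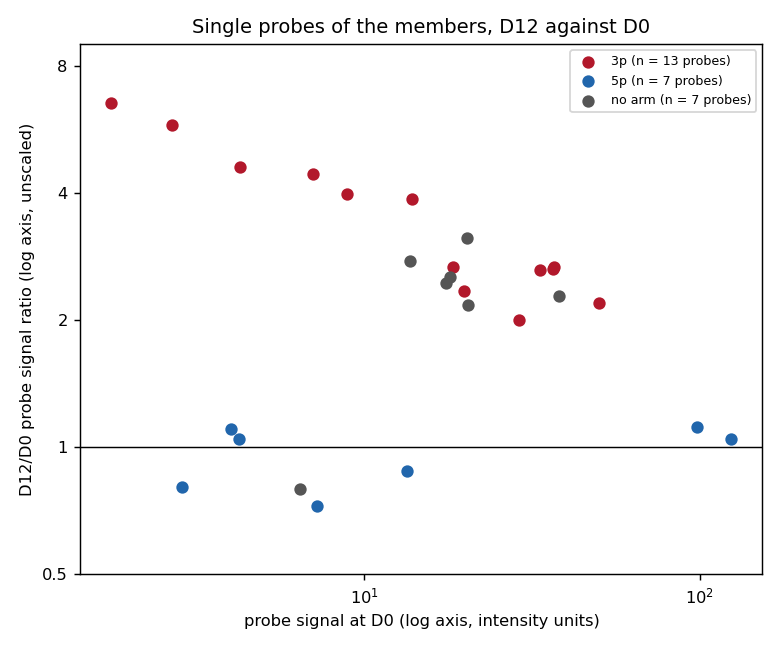
D12/D0 ratio (log axis, unscaled) of each single probe against its signal at D0 (log axis, intensity units), for probes of members that were detected on both arrays, coloured by arm. All 13 3p probes lie at 2.00 or above and all 7 5p probes at 1.12 or below, and within most 3p members the ratio is larger where the D0 signal is lower.

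Both arms of 4 hairpins were detected on all arrays, which allows the arms of one precursor name to be set side by side. At D12 the 3p arm exceeded the 5p arm, on the log2 scale of the ratio to D0, by 1.62 ± 0.44 (software error) for miR-466f, 1.67 ± 0.33 for miR-466h, 1.14 ± 0.21 for miR-466i and 2.30 ± 0.28 for miR-466m. All 4 differences were more than 3 times their error. Among the 25 hairpins of the array with both arms detected throughout, they ranked 11, 10, 15 and 6. The other 21 hairpins had a median of 1.16 with a range from -4.46 to 3.43 at D12, and medians of 0.06 at D4 and 0.67 at D16. The 4 miR-466 hairpins ranged from 1.28 to 2.41 at D4, from 1.14 to 2.30 at D12 and from 1.27 to 2.23 at D16. A higher ratio of the 3p arm was thus shared by many hairpins at D12. miR-466i, whose gene lies outside Sfmbt2, had the smallest of the 4 differences at D12.

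**Figure D4:**
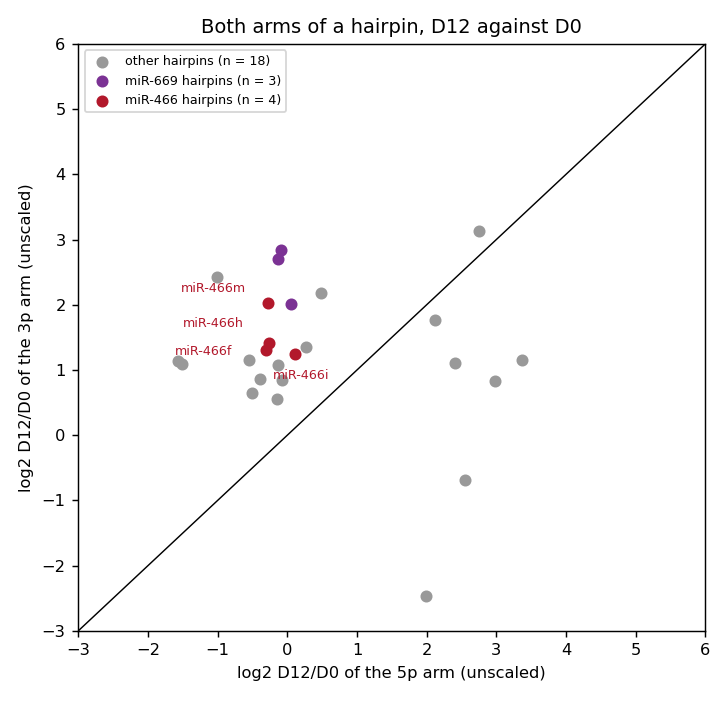
Log2 D12/D0 ratio (unscaled) of the 3p arm against that of the 5p arm for the 25 hairpins with both arms detected on all 4 arrays, with a line where both are equal. The 4 miR-466 hairpins (red) lie above the line at 5p values near 0, together with the 3 miR-669 hairpins (purple) and part of the other 18 hairpins (grey).

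The miR-467 and miR-669 families, the other large families of the Sfmbt2 cluster, were divided by arm in the same way. Of their 35 miRNAs, 26 were detected on at least 1 array and 22 on all 4, beside 283 of all 1881 miRNAs on all 4. Of their 16 3p miRNAs, the 14 detected on all 4 arrays had median ratios of 5.53, 4.09 and 2.87, beside 2.59, 1.99 and 1.32 for all miRNAs. Of these 14, 14, 14 and 13 were above 2, beside 62.1%, 47.8% and 31.1% of all miRNAs detected on both days. Of their 13 5p miRNAs, 7, 6, 5 and 4 were detected in the order of the days. Of those detected at D0, 1, 2 and 3 were lost on D4, D12 and D16. The 4 detected on all 4 arrays, which leave out the lost ones, had medians of 1.09, 0.933 and 0.632. The arms thus differed by 2.34, 2.13 and 2.18 on the log2 scale. These comparisons use the same D0 array as those of the members. Outside the miR-297 and miR-466 families, the profiles nearest to the mean of the 3p members were those of miR-669f-3p (distance 0.044), miR-669c-3p (0.099) and miR-7031-3p (0.113). The median distance over the miRNAs outside was 0.937. The 3p members themselves were 0.276 (miR-466m-3p) to 0.911 (miR-297a-3p) from their mean. miR-221-3p (0.190) and miR-6366 (0.194), of other families, were also nearer to it than any 3p member. Nearest to the mean of the 5p members were miR-669o-5p (0.051), miR-669l-5p (0.094) and miR-669e-5p (0.265), with a median of 1.18. The 5p members themselves were 0.121 to 0.267 from their mean.

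The UG repeat of miR-466j also occurs in miRNAs of other genes. Of 8 miRNAs outside the 4 families that hold UGUGUGU, 5 were detected on all arrays. miR-1187 had signals of 74.2, 109, 88.1 and 60.7 and ratios of 1.47, 1.19 and 0.818. The ratios were 1.40, 1.21 and 0.783 for miR-574-5p, 1.5, 1.31 and 0.840 for miR-3082-5p, 1.83, 1.24 and 0.897 for miR-32-3p and 1.31, 0.560 and 0.392 for miR-672-5p. None of the 5 was above 2, and all 5 were below the median of all miRNAs on each day. The only miRNA outside the families with ACACACA, miR-672-3p, was not detected on any array. Of the members with a UG repeat in a known sequence, miR-466k was never detected.

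The levels of the ratios depended on how the arrays were made comparable. The order of the arms did not, but scaling by 1 factor per array cannot change it. The 3p median at D12 was 2.65 unscaled, 1.54 after scaling by the spike-in RNAs, 1.32 by the median of all miRNAs, 1.14 by the 90th percentile and 0.807 by the 75th percentile. The direction against D0 of the 3p median, and of miR-466f-3p, miR-466h-3p, miR-466i-3p, miR-466g and miR-466q, therefore turned under the 75th percentile on all 3 days. The ratios of miR-297a-3p and miR-466m-3p at D12 stayed above 1 under each setting, at 1.96 and 1.24 with the 75th percentile. Using spots on the left side of every array alone gave a 3p median of 3.18, and the right side alone 2.14.

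**Figure D5:**
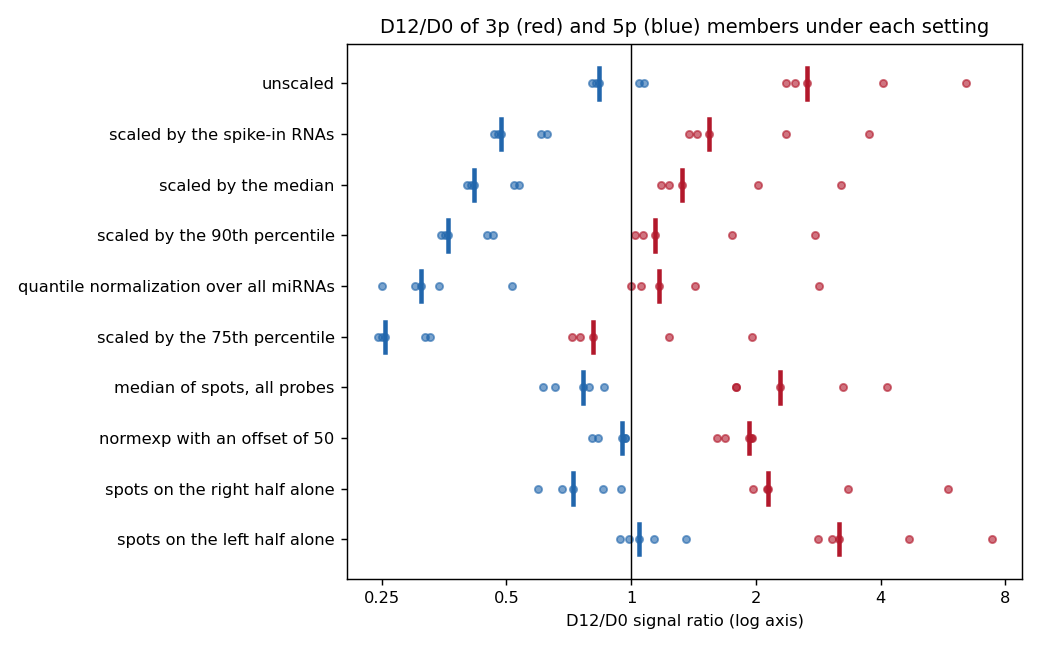
D12/D0 ratio (log axis) of the 5 3p members (red) and 5 5p members (blue) detected on all 4 arrays under each scaling, background correction and choice of spots, with points for single members, short bars for their medians and the line at 1. In every row all red points lie right of all blue points, an order that scaling by 1 factor per array cannot change. Such scaling shifts both groups together, whereas normexp lowers the red median from 2.65 to 1.92 and raises the blue median from 0.837 to 0.952. Red medians run from 0.807 to 3.18.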

How the data were processed

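Total RNA of the exosome fraction was labelled with Cy3 and hybridized to SurePrint G3 mouse miRNA arrays, 1 array a day. The methods describe experiments mixed in pairs for each day, whereas the sample descriptions count one experiment more, so an array is a pool. The authors deposited Feature Extraction 11.0.1.1 output (11.0 in their processing notes), which lists spot intensities after background subtraction and, for 1881 miRNAs with 30 spots each, the total gene signal. The deposited intensity of a miRNA that was not detected is 0.1, and there is no scaling between arrays. The rule of 3 errors gave the detection call of the software for every miRNA on each array.

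Ratios to D0, lists and alternatives were computed with Python 3.11.15, numpy 2.4.6 and pandas 2.3.3, and normexp correction (offset 50) with limma 3.58.1 in R 4.3.3. Errors of both signals were combined on the log2 scale. They cover variation within an array alone, and precision is limited by how few arrays there are. Ratios were unscaled, and thresholds of 2 and 0.5 were used. The study's text names only division by D0. A scaling of its tables is not given in the sources used here, so the unscaled ratios need not be on the scale of those tables. The fold calls were tested on simulated data drawn from the D0 signals and errors. Detection, probe sums and profile distances were not simulated. Every detected member is named, and non-members are named by profile likeness, a shared seed or a repeat, besides the listed markers. Members, lists and tests were chosen with earlier results of these data known. Probe sequences, qPCR, cell and muscle experiments were not used here.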

Additional observations from a re-analysis of the deposited data

How the results depend on the processing

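With 1 array a day there was no replicate to leave out, and an uneven or mishandled array, D0 above all, cannot be separated from its day. No paired analysis was possible because each day had a single array. Grouping members by seed was not run, since sequences matched 4 of the 26 members. At D12 the 3p median of 2.65 became 0.807 with the 75th percentile, 1.14 with the 90th, 1.32 with the median, 1.54 with the spike-in RNAs, 1.17 with quantile normalization, 2.28 with medians of spots, 1.92 with normexp and 2.14 with right-side spots. Of the alternatives chosen after seeing the data, left-side spots gave 3.18 and members with every gene copy inside Sfmbt2 gave 3.36. The value of 3.36 rests on miR-466h-3p and miR-466m-3p alone. The 5p median of 0.837 became 0.254, 0.361, 0.417, 0.486 and 0.311 under the same 5 scalings, 1.04 with shared probes and 1.05 with left-side spots. The difference of the arms, 1.67 on the log2 scale, was 1.01 with normexp and 2.01 for members inside Sfmbt2. The latter sets miR-466h-3p and miR-466m-3p against miR-466c-5p, miR-466h-5p and miR-466m-5p. The count above 2-fold, 7 at D12, was 0 with the 75th percentile, 1 with the 90th, 2 with the median, 2 with the spike-in RNAs, 1 with quantile normalization, 3 with medians of spots, 0 with normexp and 2 at a threshold of 3-fold. The count below 0.5, 0 at D12, was 6, 6, 4, 4 and 5 under the 5 scalings. Of the ratios above 2 without scaling, those that crossed 1 with the 75th percentile were, at D4, the 3p median (0.715), miR-466f-3p (0.702), miR-466g (0.700), miR-466h-3p (0.715), miR-466i-3p (0.673) and miR-466q (0.721), and at D12 miR-466f-3p (0.755), miR-466g (0.744), miR-466h-3p (0.807), miR-466i-3p (0.720) and miR-466q (0.782). Lower ratios crossed it too, at D16 the 3p median (0.792), miR-466f-3p (0.731), miR-466g (0.725), miR-466h-3p (0.792), miR-466i-3p (0.706) and miR-466q (0.763), and among 5p members miR-466i-5p (0.278 at D4, 0.327 at D12), miR-466c-5p (0.318, 0.317) and miR-466m-5p (0.237 at D4). miR-466i-3p was 0.969 at D4 with the 90th percentile and 0.970 with quantile normalization, which gave 1.00 at D12, and miR-466q was 0.895 and 0.976 with quantile normalization. These shifts follow from the scaling factors, which for D12 over D0 were 1.72 for the spike-in RNAs, 2.01 for the median, 2.32 for the 90th and 3.29 for the 75th percentile. With the lowest detected D0 signal of any miRNA in place of their D0 values, the D4 ratios of miR-466b-3p, miR-466d-3p and miR-466l-3p were 17.4, 18.9 and 15.7, which are not bounds. The counts of detected members, 13, 17, 16 and 17, were 13, 17, 16 and 16 with a common threshold, 13 on every day with 50% of spots well above background and 12, 13, 12 and 12 at 5 errors.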
